A study of Arabidopsis thaliana with 24 samples.

Results

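Dry seed of wild-type Arabidopsis thaliana, ecotype Col, sampled at 0 h, was compared with seed at 48 h of imbibition, with 3 RNA sequencing libraries at each time. The comparison asked which transcripts end above and which end below the level of the dry seed. A gene was taken where at least 3 of these 6 libraries held a TPM value (a share of the library corrected for gene length) of 1 or more, which gave 17750 of the 23826 genes in the deposited table. The series as a whole holds 24 libraries: wild type and the mutant ref6c, both in the Col ecotype and both from seed tissue, with 4 sampling times of 0, 6, 24 and 48 h. The mutated gene, REF6, encodes an enzyme that takes the repressive mark H3K27me3 off histones. All seeds were after-ripened by dry storage and germinated on MS medium in long days. The growth note of each sample, wild type included, names ref6-1;REF6-HA seeds, and the seed line of a group is therefore taken from its sample name alone. Nothing states that the 3 libraries of a group came from separate seed batches, so every p-value measures the spread between these libraries. The 6 libraries held 17653476 to 18741817 reads on genes, recovered from the TPM and the gene spans. Genes named below beyond those of the naming rule given with the processing, such as those named for a high level, for their role or for a course over the 4 times, were chosen after their values were seen.

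A dry Arabidopsis seed stores proteins and oil for the seedling, together with late embryogenesis abundant (LEA) proteins and small heat shock proteins that protect dry cells, and it still holds the messenger RNAs made during maturation. On imbibition those RNAs are broken down while the embryo resumes transcription, builds ribosomes, loosens its cell walls and replicates DNA. The hormone abscisic acid (ABA) keeps the seed dormant and gibberellin promotes germination. After the root has emerged, the stored oil is turned into sugar and the cotyledons green.

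TPM values are shares of a library: each column adds up to 1000000. A gene can therefore rise because others fall, and how much RNA a seed held was not measured. In bulk seed, fewer cells of a type and less RNA per cell cannot be told apart. Levels below are TPM in the 3 libraries of a group, or their mean ± SD (n = 3). Changes are log2 differences, 48 h minus 0 h, on log2(TPM + 1) ± SE, tested with limma. A gene was called where the p adjusted by Benjamini-Hochberg over all 17750 genes was under 0.05, and a list count gives its called members. The pseudocount of 1 understates the change of a gene near 0 TPM, and for a gene listed at 0 in dry seed the change only restates its 48 h level. Because the TPM divide by the whole gene span with its introns, levels are compared within a gene and not between genes.

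Promoter sequence is shown first for 1 gene each of the storage, LEA, heat shock and ribosomal groups, to show a motif that each group is known for. Each line is the 250 bases before the gene start on its own strand, from RefSeq TAIR10.1, with the motif in capitals. SESA4, a 2S seed storage albumin, lies on the plus strand with the window chr4:13613346-13613595, and its capitals mark the RY element CATGCA, which is bound by maturation regulators of the ABI3 family. M10, a LEA protein, lies on the plus strand with the window chr2:17209447-17209696, and its capitals mark the ABA-responsive core ACGTG, here read on both strands of 1 palindrome. HSP17.4, a small heat shock protein, lies on the minus strand with the window chr3:16984868-16985117, and its capitals mark the heat shock element GAANNTTC. RPS5A, a ribosomal protein of the small subunit, lies on the minus strand with the window chr3:3779546-3779795, and its capitals mark the telo box AAACCCTA.
SESA4: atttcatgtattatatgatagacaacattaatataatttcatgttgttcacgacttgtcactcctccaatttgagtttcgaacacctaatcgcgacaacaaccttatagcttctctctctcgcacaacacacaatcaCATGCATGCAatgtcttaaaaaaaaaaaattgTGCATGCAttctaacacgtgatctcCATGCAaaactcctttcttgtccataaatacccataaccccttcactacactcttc
M10: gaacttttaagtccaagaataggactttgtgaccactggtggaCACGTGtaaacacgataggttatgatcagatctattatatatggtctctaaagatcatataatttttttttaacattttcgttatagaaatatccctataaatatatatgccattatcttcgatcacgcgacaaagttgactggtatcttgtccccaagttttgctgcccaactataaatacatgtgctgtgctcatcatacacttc
HSP17.4: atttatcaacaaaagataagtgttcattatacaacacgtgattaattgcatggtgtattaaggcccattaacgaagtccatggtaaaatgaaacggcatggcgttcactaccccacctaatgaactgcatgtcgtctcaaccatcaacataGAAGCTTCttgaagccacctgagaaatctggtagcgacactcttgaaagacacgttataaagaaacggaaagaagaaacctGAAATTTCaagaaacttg
RPS5A: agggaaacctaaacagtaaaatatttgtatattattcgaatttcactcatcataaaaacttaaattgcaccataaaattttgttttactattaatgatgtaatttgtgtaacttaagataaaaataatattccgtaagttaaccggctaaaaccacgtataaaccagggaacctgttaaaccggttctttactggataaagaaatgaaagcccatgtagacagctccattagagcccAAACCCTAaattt

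The RY element occurred 6 times in the SESA4 window, counted on both strands with overlaps, and in 9 of 10 storage protein promoters (90.0%) and 8 of 8 oil body promoters, against 8.31% of 23639 promoters of all genes in the table. The ABA-responsive core stood in 20 of 26 LEA promoters (76.9%), against 23.5% of all promoters. Of 367 genes called lower by 3 or more on the log2 scale, 46.3% held the core and 21.0% held the RY element, while 9.81% held site II and 2.45% the telo box. Of 3753 promoters of genes called higher by 3 or more, 24.3% and 8.26% did, close to all promoters. The heat shock element stood in 6 of 19 promoters of heat shock genes (31.6%) against 9.44% of all, and site II, TGGGCC, in 11 of 20 promoters of ribosomal and nucleolar genes and 8 of 13 of DNA replication genes, but also in 10 of 19 of heat shock genes, against 3546 of the 23639. The telo box stood in 4 of the 20 ribosomal and nucleolar promoters against 956 of all. These shares describe letters in a window, and were not tested.

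Nearly every transcript changed its share between dry seed and 48 h. Of the 17750 genes 16767 were called (94.5%), 14457 of them higher (81.4%) and 2310 lower (13.0%), and 983 were not called. A change of at least 2-fold on this scale was called in 12090 genes upward (68.1%) and 1374 downward (7.74%). A change of 5 or more on the log2 scale was called in 759 genes upward and 123 downward. The 3 libraries of one time lay wholly above those of the other for 14457 genes upward (81.4%) and 2307 downward (13.0%). The median change of all genes was 1.66, and a list is read below against these shares and this median.

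Among the genes taken, rises outnumbered falls under each scaling, but by how much depends on the scale and on the filter. TPM rescaled without organelle, storage and oil body genes gave 13678 genes higher and 2770 lower. The voom model on recovered reads gave 12914 and 3382. When libraries were scaled by the median of ratios, 9320 genes were called higher (52.5%) and 6716 lower (37.8%), and the median change was 0.37. Under that scaling 3433 genes called higher by TPM were called lower, and 0 went the other way. The 10 highest genes held 33.3 ± 0.393% of the dry seed libraries and 7.16 ± 0.191% of those at 48 h, and genes at 1 TPM or more numbered 12505.7 ± 198 and 17772.7 ± 155. Of the genes tested, 4871 lay under 1 TPM in every dry seed library and entered through the 48 h libraries alone, so they had to end higher. Another 286 lay under 1 TPM in every 48 h library and had to end lower. Without both sets, TPM gave 9580 genes higher and 2019 lower. They were not left out under the median of ratios, so the part of the filter in 9320 against 6716 is not known. Under each of the scalings used (TPM, median of ratios, and TPM rescaled without organelle, storage and oil body genes), 9278 genes were called higher and 2270 lower.

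**Figure D1:**
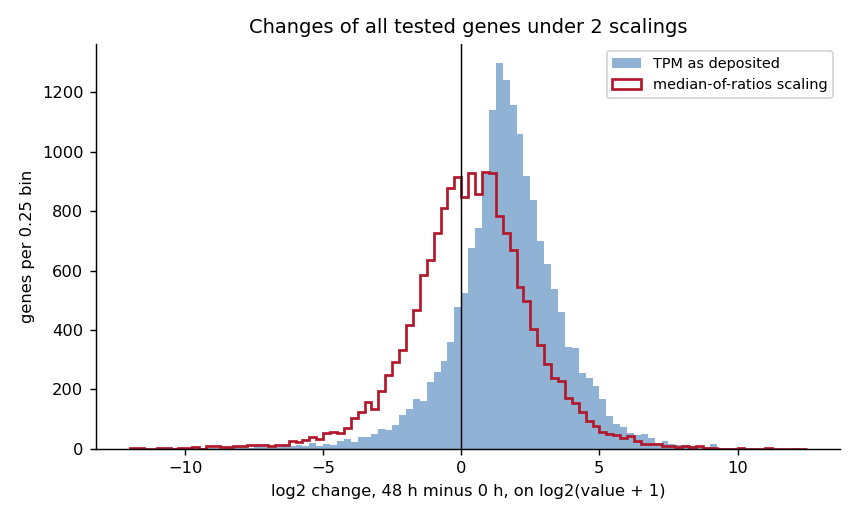
Number of genes by log2 change, 48 h minus 0 h, on log2(value + 1), in bins of 0.25, for the TPM as deposited (filled) and after median-of-ratios scaling (outline). The TPM changes centre on 1.66 and the rescaled changes on 0.37, so genes with small rises change direction between the scalings.

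Genes with the highest deposited TPM in dry seed were those of a maturing embryo, and most of their share was gone at 48 h. The gene span with its introns enters such a rank, which is given only to choose genes. SESA5, another 2S albumin, stood at 85625, 81876 and 81486 TPM in dry seed and at 272, 365 and 270 at 48 h. LCR67, a plant defensin, stood at 45908, 43830 and 49786 and then at 315, 418 and 334. GEA6, the LEA protein also called EM6, stood at 30095, 33125 and 33547 and then at 721, 978 and 700. In each of these genes every 48 h library lay far below every dry seed library. At 48 h the TPM ranked first for ICL, the isocitrate lyase of the glyoxylate cycle that turns oil into sugar, at 13668, 13254 and 12682 TPM from 1345, 1526 and 1369. HSC70-1, a constitutive chaperone, stood at 7809, 7504 and 7469 from 123, 149 and 136. RBCS1A, a small subunit of Rubisco, stood at 7780, 6854 and 7523 from 22.8, 23.4 and 21.4. The LEA-family gene AT3G02480 ended above dry seed with 9049, 10064 and 8809 TPM from 652, 674 and 696, against the direction of most LEA genes. AT1G68250 and the LEA gene AT3G15670 were among the 10 highest at both times.

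**Figure D2:**
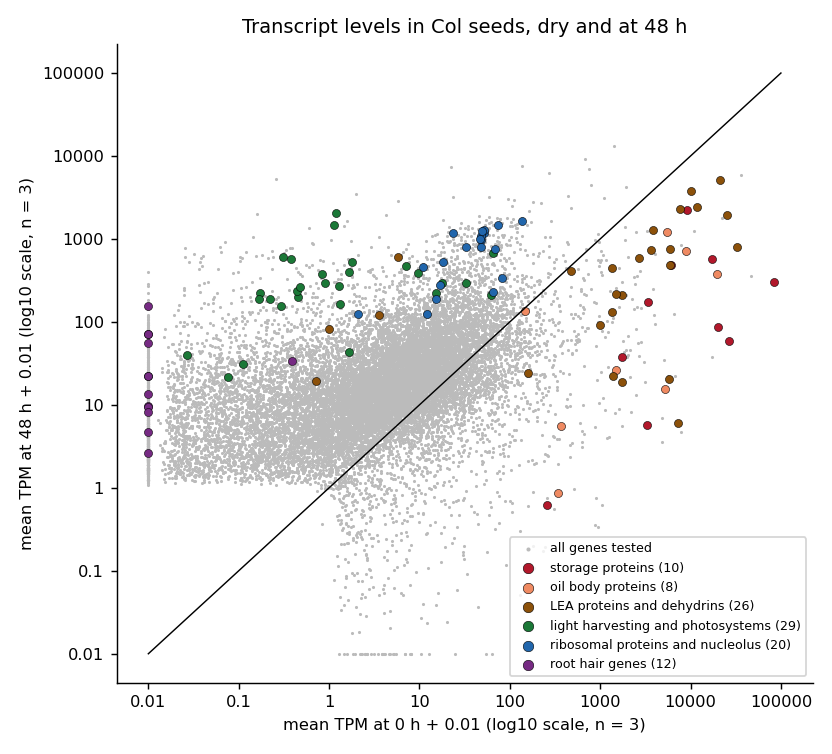
Mean TPM at 48 h against mean TPM at 0 h (n = 3 libraries each, log10 axes after adding 0.01) for the 17750 genes tested, with 6 gene lists in colour and the line of equal level. Storage, oil body and most LEA genes lie below the line at high dry seed levels, and light harvesting, ribosomal and root hair genes lie above it.

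Among genes with a symbol and non-overlapping libraries, the largest falls were in wall, LEA, storage and stress genes. XTH25, a xyloglucan endotransglucosylase of the cell wall, fell the most, from 4826 ± 93.6 TPM to 3.53 ± 0.633 (log2 change -10.07 ± 0.27, adjusted p = 1e-20). M10 fell from 7310 ± 477 to 6.11 ± 0.654 TPM (-10.01 ± 0.15), and the nitrile specifier NSP2 by 9.01 on the log2 scale. GASA2, a small peptide of the gibberellin-regulated GASA family, fell by 9.34, and the other members of the top 15 were AIG2L, CRU2, HSP17.6A, SESA3, OLEO4, HSP17.4, SESA5, ATECP31, MLP31, AtMT4a and SESA4, with changes from -9.49 to -7.85. Of these, AIG2L, GASA2 and NSP2 lay under 1 TPM in every 48 h library and so had to end lower. Family members went opposite ways: GASA4 and XTH31, relatives of GASA2 and XTH25, rose by 9.56 ± 0.22 and 9.01 ± 0.10. Both GASA4 and XTH31 lay under 1 TPM in every dry seed library and so had to end higher.

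The largest rise was in PYK10, a beta-glucosidase of endoplasmic reticulum bodies, from 0.243, 0.241 and 0.253 TPM to 5148, 5001 and 5528 (12.03 ± 0.12, adjusted p = 8.8e-28). EXPA2, an expansin that loosens cell walls, followed with 10.73 ± 0.14, and the chlorophyll-binding protein gene CAB1 with 9.95 ± 0.22. The rest of the top 15 held the Rubisco subunits RBCS2B and RBCS3B, the lectin JAL34, GASA4, LHB1B2, the tonoplast aquaporin TIP2, ELP, PORB, BGLU21, the lipid transfer protein LP1, the wall protein CWLP and the extensin EXT3, with changes from 9.87 to 9.20. All 15 but CAB1, LHB1B2 and CWLP lay under 1 TPM in every dry seed library, so the filter fixed their direction. Reads of CAB1, LHB1B2 and the RBCS genes can be shared among near-identical copies, and the same holds for the clustered albumin genes SESA1 to SESA4, so a value for 1 copy is uncertain.

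All 10 storage protein genes fell, with a median change of -6.40, and all 10 were also lower by the median of ratios. Of the 10, only AT1G03890 lay under 1 TPM in every 48 h library and so had to end lower. Their summed share went from 17.1 ± 0.565% of the library to 0.393 ± 0.0390%. An exact two-sided permutation test gave p = 0.10, the smallest that 3 against 3 libraries allow. SESA3 fell from 26686, 28162 and 25905 TPM to 58.4, 59.0 and 57.6. The 12S globulins were spread widely: CRU2 fell by 8.98 on the log2 scale, from 3335 ± 56.1 to 5.64 ± 0.600 TPM, CRU3 by 3.64, and CRA1, the major globulin gene, only by 2.06, from 9228 ± 808 to 2215 ± 231.

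Of 8 oil body genes 7 fell and 0 rose, with a median of -5.75, and their summed share went from 4.14 ± 0.0555% to 0.248 ± 0.0375%. OLEO1, the main oleosin that coats oil bodies, stood at 20973, 18819 and 18778 TPM and then at 350, 440 and 328 (-5.72 ± 0.19). OLEO4 fell from 5174 ± 426 to 15.4 ± 3.19 TPM, and the caleosin gene ATPXG2 by 5.78 on the log2 scale. OLEO3 was the exception, with 141, 146 and 158 TPM against 126, 162 and 119, overlapping libraries and no call, although it was lower by the median of ratios.

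**Figure D3:**
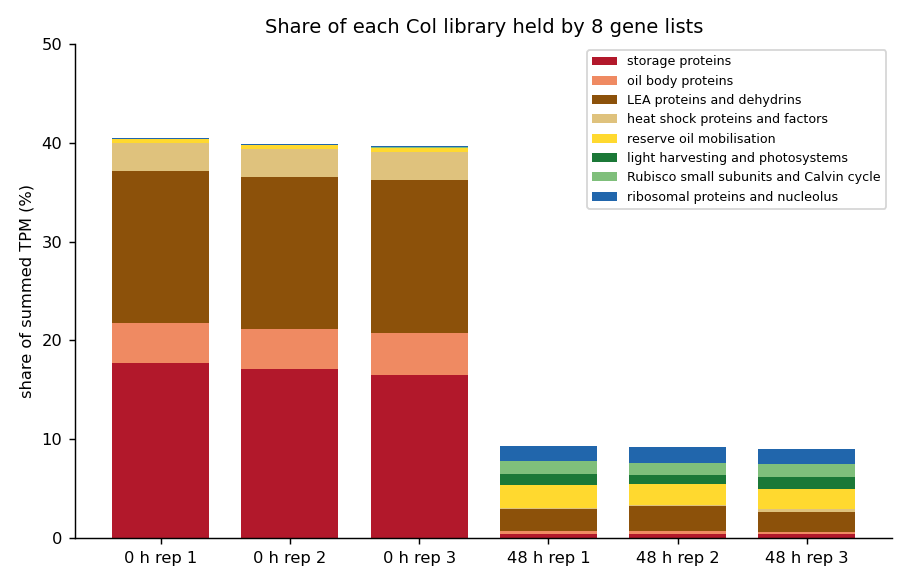
Share of the summed TPM, in percent, held by 8 gene lists in each of the 6 Col libraries (stacked bars). Storage, oil body, LEA and heat shock genes fill most of the coloured share of each dry seed library, and oil mobilisation, light harvesting, Calvin cycle and ribosomal genes enter at 48 h.

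Of 28 LEA and dehydrin genes 26 passed the filter, 21 of them lower and 4 higher, with a median of -2.49. Their share fell from 15.4 ± 0.0847% to 2.27 ± 0.193%. EM1, another Em protein, fell from 2802, 2793 and 2422 TPM to 562, 643 and 569 (-2.17 ± 0.15), far less than M10. The dehydrin LTI30 fell from 1741 ± 214 to 19.0 ± 2.52 TPM. The 4 that rose were SAG21, ERD14, COR47 and ERD10, genes known from stress responses of vegetative tissue, and all 4 also rose by the median of ratios. SAG21 went from 5.35, 7.47 and 4.29 TPM to 638, 618 and 582 (6.54 ± 0.19). ERD14 went from 3.54 ± 1.63 to 121 ± 12.8 TPM, and the level of COR47 and ERD10 in dry seed came mostly from 1 library, replicate 2. ECP63 was not called.

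The fall of LEA transcripts was not a straight decline. Of the 21 LEA genes called lower, 18 had their lowest mean at 24 h and stood higher again at 48 h. The dehydrin RAB18 (AT5G66400) had means of 25290, 3363, 351 and 1938 TPM over the 4 times in order, and GEA6 had means of 32256, 1558, 196 and 800. The list as a whole held 0.923 ± 0.162% at 24 h and 2.27 ± 0.193% at 48 h. The summed share of oil body genes also rose, from 0.106 ± 0.0250% to 0.248 ± 0.0375%, but its members were split. Of the 7 oil body genes called lower, 3 had their lowest mean at 24 h and 4 at 48 h. Storage proteins went on down from 1.04 ± 0.172% to 0.393 ± 0.0390%. Over all 2310 genes called lower, the lowest of the 4 means lay at 24 h in 1054 and at 48 h in 1117. The step from 24 to 48 h was not tested here.

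Heat shock genes of the dry seed fell, and 13 of 19 listed members were lower and 4 higher, with a median of -2.88. Of the 13, only HSP21 lay under 1 TPM in every 48 h library and so had to end lower. The cytosolic small heat shock proteins HSP17.6A and HSP17.4 fell by 8.87 and 8.20 on the log2 scale, from means of 17459 and 6752 TPM. HSP17.4 stood at 7377, 6571 and 6307 TPM and then at 18.0, 19.8 and 29.2. HSFA9, a seed heat shock factor, fell from 419, 439 and 413 TPM to 10.4, 16.5 and 8.97. The members that rose were the small heat shock gene AT5G51440, from 20.6 ± 2.29 to 172 ± 36.4 TPM, and the stress-induced factors HSFA2, HSFA7A and AT-HSFA7B, and by the median of ratios only 1 member was higher. HSFA2 and HSFA7A were uneven at 48 h: HSFA7A stood at 16.5, 8.09 and 40.9 TPM, with replicate 3 highest.

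The raffinose and seed tonoplast genes followed, with 6 of 8 lower and 2 higher. The 2 that rose lay under 1 TPM in every dry seed library, so the filter fixed their direction. GolS2, a galactinol synthase that starts raffinose synthesis, fell from 1124 ± 46.1 to 8.72 ± 0.833 TPM (-6.86 ± 0.20). The seed tonoplast intrinsic proteins TIP3;1 and BETA-TIP fell by 5.58 and 5.66 on the log2 scale. Vegetative aquaporins went the other way: 14 of 14 tonoplast and plasma membrane members rose, with a median of 3.60, although 3 of them were lower by the median of ratios. Of the 14, 5 lay under 1 TPM in every dry seed library and so had to end higher, TIP2 among them. TIP2 was listed at 0, 0.163 and 0 TPM in dry seed and at 699, 569 and 806 at 48 h, and PIP3 went from 2.09 ± 0.463 to 647 ± 36.1 TPM.

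**Figure D4:**
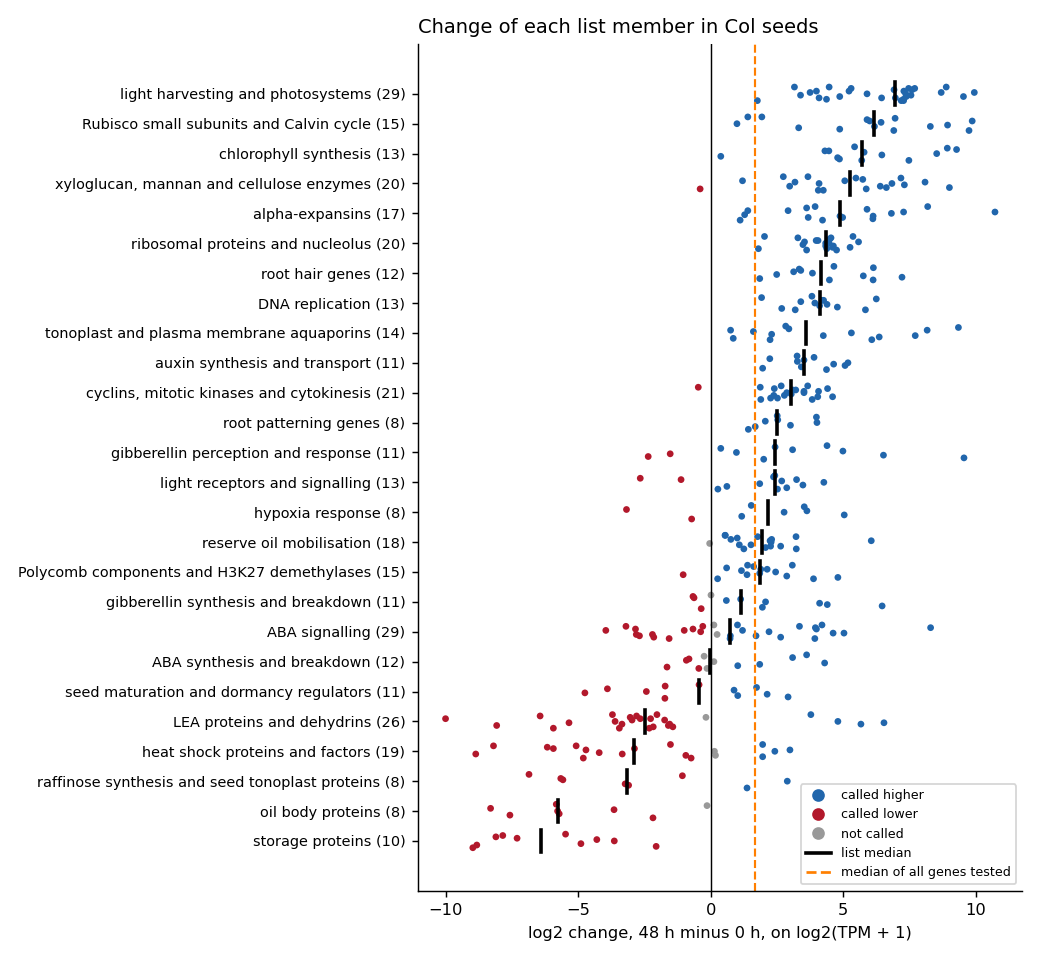
Log2 change, 48 h minus 0 h, of each list member past the filter (points, blue called higher, red called lower, grey not called), with the list median (black bar), 0 (solid line) and the median of all genes tested, 1.66 (dashed line). Storage and oil body lists lie at the lower end and light harvesting at the upper end, and lists between 0 and 1.66 rose in TPM by less than the median gene.

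Regulators of maturation and dormancy were split, with 5 of 11 higher and 6 lower, and 2 higher and 8 lower by the median of ratios. Of those lower, 2 lay under 1 TPM in every 48 h library, DOG1 among them, so the filter fixed their direction. DOG1, a main determinant of seed dormancy, stood at 25.2, 33.6 and 31.5 TPM in dry seed and at 0.110, 0.108 and 0.222 at 48 h (-4.75 ± 0.12, adjusted p = 2.1e-21). E12A11, also called MFT, a seed germination regulator, fell from 37.3 ± 3.13 to 1.57 ± 0.243 TPM, and AT4G11040, also called RDO5, from 104 ± 4.18 to 18.6 ± 1.79. HSI2 and AT4G32010 (HSL1), repressors of the maturation program, rose by 2.13 ± 0.14 and 2.92 ± 0.10. ABI3, a master regulator of maturation, stood at 46.0, 36.3 and 30.1 TPM and then at 72.0, 79.4 and 77.0, a rise of 1.02 ± 0.16 that became a fall of 0.74 by the median of ratios (-0.74). Its mean was higher at 6 h, 343 TPM, and at 24 h, 134.

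Genes of ABA synthesis and breakdown were split, with 5 of 12 higher, 4 lower and 3 not called, or 3 higher and 7 lower by the median of ratios. The filter fixed the direction of 1 that ended higher and 2 that ended lower. Among breakdown enzymes, which hydroxylate ABA, CYP707A3 rose from 0.738 ± 0.204 to 33.5 ± 6.53 TPM and CYP707A1 by 3.09 ± 0.14. CYP707A2, the member known for its role in imbibed seeds, stood at 13.5, 12.9 and 13.8 TPM and then at 9.55, 12.7 and 11.2, with no call (-0.25 ± 0.14, adjusted p = 0.081). It was lower by the median of ratios (-1.95), and its mean had been 29.4 TPM at 6 h. CYP707A4 was listed at 0 TPM in each of the 6 libraries and did not pass the filter. Among synthesis genes the dioxygenases NCED6 and NCED5 fell by 1.65 and 0.82 on the log2 scale from levels under 3 TPM, and ABA4 rose by 3.62 ± 0.11.

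In ABA signalling 15 of 29 genes were higher and 12 lower, with a median of 0.73 that turned to -1.04 by the median of ratios. Of the 29, 4 lay under 1 TPM in every dry seed library and had to end higher, PYL4 and ABF3 among them. Another 2 lay under 1 TPM in every 48 h library and had to end lower. Receptors mostly rose: PYL4 went from 0.502, 0.497 and 0.265 TPM to 461, 417 and 457 (8.30 ± 0.13), and RCAR3 (PYL8) from 2.51 ± 0.254 to 63.6 ± 0.0947. PYL7 fell from 18.7 ± 1.13 to 1.15 ± 0.273 TPM. Among the phosphatases that block the pathway, ABI2 fell from 56.1 ± 5.34 to 2.70 ± 0.593 TPM (-3.96 ± 0.12) and the seed phosphatase AHG1 from 359 ± 16.3 to 50.8 ± 9.58, while ABI1 rose from 3.42 ± 0.837 to 26.4 ± 3.29. Of the transcription factors, ABI5, which restrains germination, stood at 219, 198 and 179 TPM and then at 38.6, 50.9 and 42.8 (-2.15 ± 0.16). ABI4 and ABF3 rose by 5.03 ± 0.14 and 4.62 ± 0.10, ABF3 from 0, 0 and 0.0258 TPM to 23.5, 21.7 and 26.2.

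Gibberellin synthesis genes ended higher in 7 of 11 cases and lower in 3, or 5 and 6 by the median of ratios. Of the 11, 4 lay under 1 TPM in every dry seed library and so had to end higher, GA3OX1 and GA3OX2 among them. The last-step enzymes, GA 3-oxidases, were near 0 in dry seed. GA3OX2 went from 0.0426, 0 and 0 TPM to 92.7, 83.9 and 90.6 (6.47 ± 0.11), and GA3OX1 from 0, 0.0407 and 0 to 18.7, 17.5 and 25.8 (4.40 ± 0.16). The early-step genes GA3, which encodes ent-kaurene oxidase, and KAO2 fell by 0.63 and 0.67 on the log2 scale. The net change hid a much higher transient in GA20OX3, which averaged 257 TPM at 6 h and ended at 7.61, 9.19 and 6.63 (1.95 ± 0.11).

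In gibberellin perception 9 of 11 genes rose, a share near the 81.4% of all genes, and 2 fell, both of them receptors. The other listed receptor, GID1B, was called higher. By the median of ratios 7 were higher and 4 lower. Of the 11, 4 lay under 1 TPM in every dry seed library and so had to end higher. GID1A went from 120, 142 and 148 TPM to 25.6, 26.0 and 25.3 (-2.36 ± 0.07), and GID1C fell by 1.53. The DELLA repressors that the receptors target rose: RGL2, the main DELLA of seed germination, from 4.81, 4.91 and 5.42 TPM to 174, 213 and 189 (4.99 ± 0.10), and RGA1 from 3.24 ± 0.315 to 88.2 ± 6.15. Both kept their direction by the median of ratios, at 3.35 and 2.83.

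**Figure D5:**
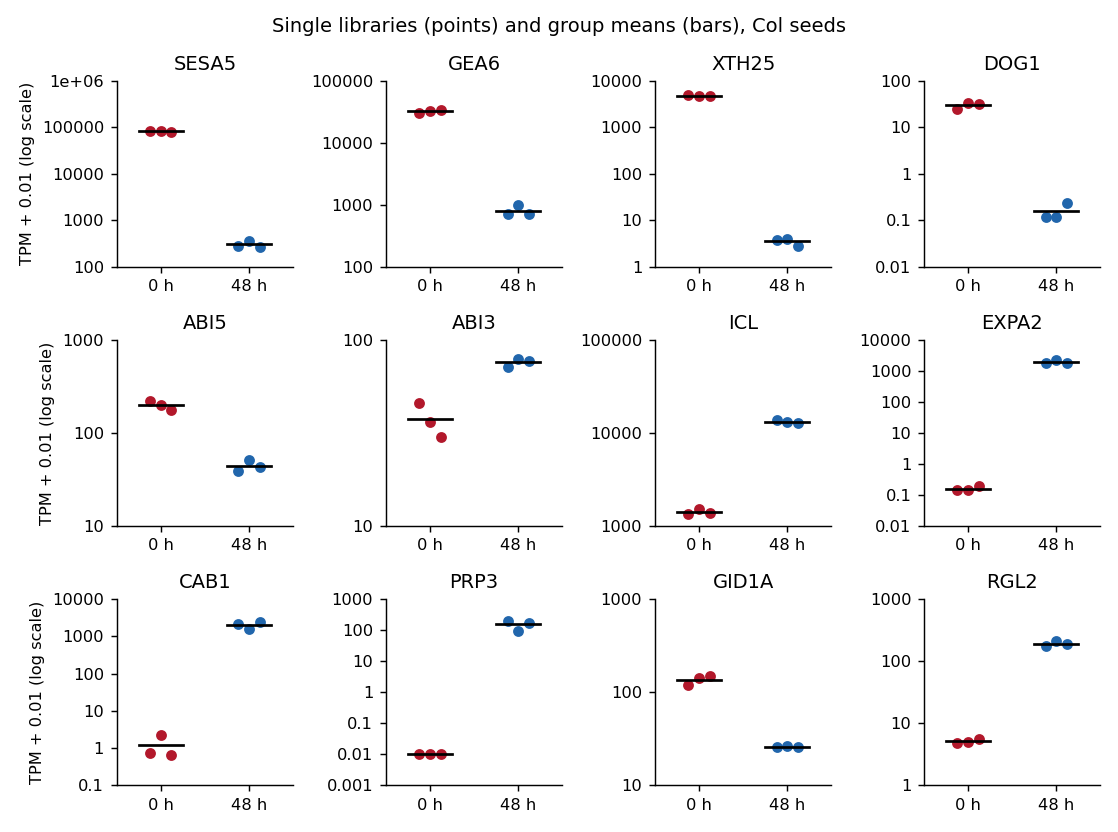
TPM + 0.01 on a log axis in each Col library at 0 h and 48 h (points), with the group mean (bar), for 12 genes described in the text. In all 12 genes the libraries of the 2 times do not overlap, and PRP3 was listed at 0 in every dry seed library. The rise of ABI3 is in TPM and turns to a fall by the median of ratios.

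Genes that mobilise oil rose in 17 of 18 cases, with a median of 1.92, little above the 1.66 of all genes. By the median of ratios 9 were higher and 8 lower. Their summed share rose from 0.402 ± 0.0132% to 2.15 ± 0.0794%, most of it from ICL (3.22 ± 0.12). PCK1, which takes carbon on to sugar, rose from 155 ± 9.74 to 1458 ± 14.6 TPM, and MLS, malate synthase, from 1096 ± 25.6 to 3142 ± 207. Of the 2 peroxisomal malate dehydrogenases, PMDH2 rose from 0.266 ± 0.0915 to 83.1 ± 2.65 TPM and PMDH1 from 82.6, 85.7 and 95.8 to 450, 454 and 406. PMDH2 was the 1 listed member under 1 TPM in every dry seed library and so had to end higher. AIM1, a beta-oxidation enzyme, was the member with no call. The lipase gene SDP1, which opens oil breakdown, rose by only 0.54, and its mean had been 81.7 TPM at 6 h against 31.6 at 48 h.

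All 29 light harvesting and photosystem genes rose, with the highest list median, 6.97, and 28 were higher and 0 lower by the median of ratios. CAB1 averaged 1.18 ± 0.884 TPM in dry seed and stood at 2186, 1577 and 2477 at 48 h. NPQ4, the PsbS protein of photoprotection, rose from 0.156 ± 0.104 to 190 ± 24.5 TPM, and PSAF, a photosystem I subunit, from 0.469 ± 0.232 to 260 ± 39.1. In each of the 29 genes the highest of the 4 means lay at 48 h. The share of the list was 0.0814 ± 0.00787% at 24 h and 1.10 ± 0.171% at 48 h. At 48 h replicate 2 was the lowest of the 3 libraries in all 29 of these genes, against 7817 of the 17750 genes tested, and without it the list median was 7.08.

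Calvin cycle and chlorophyll genes rose with them, 15 of 15 and 13 of 13 past the filter, with medians of 6.18 and 5.70. Replicate 2 was the lowest 48 h library in all 15 and all 13 of them too. Of these, 5 Calvin cycle and 6 chlorophyll genes, and 12 of the 29 light harvesting genes, lay under 1 TPM in every dry seed library and so had to end higher. By the median of ratios 2 Calvin cycle genes and 1 chlorophyll gene were lower. FBA2, a plastid aldolase, rose from 0.255, 0.253 and 0.0909 TPM to 616, 522 and 634 (8.94 ± 0.09). PORB and PORA, which make chlorophyllide in the light, rose from 0.110 ± 0.0224 and 0.0951 ± 0.0957 TPM to 695 ± 122 and 197 ± 38.3. CHLI1, a subunit of magnesium chelatase, rose by 8.53 ± 0.09, whereas CH1, which makes chlorophyll b, rose only from 32.7 ± 2.58 to 42.9 ± 5.14 TPM. Chloroplast-encoded genes went from 0.414 ± 0.0157% to 2.49 ± 0.252% of the library.

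Ribosomal and nucleolar genes rose in 20 of 20 cases, with a median of 4.36, and 19 were higher and 0 lower by the median of ratios. RPS5A, whose promoter is printed above, rose from 47.0, 47.5 and 46.5 TPM to 998, 1062 and 935 (4.38 ± 0.09), and RPL5B from 47.8 ± 2.17 to 1079 ± 30.7. None of the 20 had its highest mean at 48 h: 6 peaked at 6 h and 14 at 24 h. The nucleolin gene NUC-L1, which acts in ribosomal RNA synthesis, had means of 81.8, 1696, 911 and 337 TPM over the 4 times in order. Copies such as RPS5A and RPS5B are alike in sequence, so reads may have been divided between them.

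DNA replication genes rose in 13 of 13 cases, with a median of 4.11, and all 13 were also higher by the median of ratios. PCNA1, the sliding clamp of the replication fork, went from 0, 0 and 0.0502 TPM to 57.4, 56.2 and 58.1 (5.84 ± 0.12), and MCM5, a subunit of the replicative helicase, from 0.233 ± 0.0668 to 20.3 ± 1.06. TSO2, a ribonucleotide reductase subunit, ended at 229, 207 and 220 TPM from 2.21, 1.65 and 1.80, after a mean of 1209 at 6 h. Of the 13, 11 lay under 1 TPM in every dry seed library, passed the filter through 48 h alone and had to end higher. Cell cycle genes rose in 20 of 21 cases, with a median of 3.04, but 16 of the 21 likewise had to end higher. CYCD2;1 and CYCD3;2, D-type cyclins of cell cycle entry, rose by 4.04 ± 0.06 and 4.41 ± 0.09. The mitotic cyclins CYC1BAT, CYCB1;3 and CYCB1;4 were listed at 0 in every dry seed library and reached means of 10.6, 4.35 and 6.33 TPM. AUR2, an Aurora kinase, was the member that fell, by 0.47.

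Listed cell wall genes rose, with 17 of 17 alpha-expansins past the filter higher and a median of 4.88. Of the xyloglucan, mannan and cellulose genes 19 of 20 were higher, with a median of 5.27. Of these, 14 expansins and 11 wall enzymes lay under 1 TPM in every dry seed library, so the filter fixed their direction. By the median of ratios 1 of the expansins and 2 of the wall enzymes were lower. XTH25, which fell from 4826 ± 93.6 to 3.53 ± 0.633 TPM, is not among the listed wall enzymes and is not in these counts. EXPA2, known for its role in seed germination, stood at 0.131, 0.130 and 0.187 TPM and then at 1838, 2304 and 1770. XTH16 was listed at 0 in dry seed and at 274, 275 and 264 TPM at 48 h. CESA1, a cellulose synthase of primary walls, rose from 3.98 ± 1.03 to 92.6 ± 8.47 TPM. MAN5, a mannanase, was the member that fell, by 0.40, while MAN7 rose from 2.29 ± 0.163 to 193 ± 29.8. The highest mean lay at 24 h in 9 of the 17 expansins, among them EXPA10 with 667 TPM then and 73.7 at 48 h.

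Root hair genes were nearly absent from dry seed libraries and present at 48 h. Of 13 listed genes 12 passed the filter, all through the 48 h libraries alone, so their rise was fixed by the filter and their levels are given as a description. At 0 h 11 of the 12 were listed at 0 TPM in every library. PRP3, a wall protein of root hairs, stood at 192, 98.0 and 172 TPM at 48 h, and RHS19, a peroxidase, at 88.0, 47.6 and 78.4. RSL4, the transcription factor that drives hair growth, stood at 11.1, 7.29 and 10.7 TPM, and RHD2, the NADPH oxidase of the hair tip, at 5.19, 3.68 and 5.16. Replicate 2 was the lowest 48 h library in these 4 genes and in 10 of the 12. RHD6, which specifies hair cells, was the member present earlier, with means of 0.378, 9.47, 21.2 and 33.5 TPM over the 4 times. Of 11 root patterning genes 8 passed and rose, 7 of them through the 48 h libraries alone, among them SHR by 4.01 ± 0.10 and the endodermal gene CASP1 from 0 to 4.76 ± 0.878 TPM. The 11 auxin genes past the filter all passed through 48 h alone and had to end higher, AUX1, an auxin importer, going from 0.115 ± 0.0373 to 39.5 ± 5.62 TPM.

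Light signalling genes rose in 11 of 13 cases, a share near the 81.4% of all genes, with a median of 2.42. By the median of ratios 9 were higher and 4 lower. PHYA, the phytochrome of far-red light, rose from 8.10 ± 0.255 to 101 ± 6.47 TPM, and HYH and HY5, which promote greening, by 4.27 ± 0.08 and 2.52 ± 0.11. PIL2 (PIF6) and PIF7 fell by 2.66 and 1.12. Hypoxia genes were mixed, 6 of 8 higher and 2 lower, against 81.4% and 13.0% of all genes, with a median of 2.15. By the median of ratios 4 were higher and 2 lower. In this list 1 member lay under 1 TPM in every dry seed library and so had to end higher. The summed share of the list did not move beyond its spread, 0.0626 ± 0.00244% against 0.0594 ± 0.0106% (exact permutation p = 0.80). ADH1, alcohol dehydrogenase, fell from 590, 587 and 542 TPM to 69.1, 65.5 and 53.9 (-3.18 ± 0.10), while the haemoglobin HB1 rose from 0.965, 0.893 and 2.08 to 76.0, 71.4 and 72.2.

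Genes of Polycomb complexes, which place or read H3K27me3, and of the demethylases that remove it were called higher in 14 of 15 cases. Their median of 1.85 was near the 1.66 of all genes, with 8 members above that and 7 below. By the median of ratios 9 were higher and 5 lower. Of the 15, 3 lay under 1 TPM in every dry seed library and so had to end higher, CLF among them. CLF, a methyltransferase subunit, rose from 0.0606, 0.0901 and 0 TPM to 13.1, 14.6 and 15.8 (3.88 ± 0.11), and VEL1 from 1.36 ± 0.230 to 64.6 ± 0.897. REF6 stood at 1.09, 1.46 and 0.935 TPM in dry seed and averaged 14.8 ± 1.05 at 48 h, with no overlap (2.87 ± 0.12, adjusted p = 1.2e-16). ELF6, a related demethylase, stood at 6.91, 6.48 and 4.51 and then at 8.98, 9.42 and 9.98, a rise of 0.60 ± 0.17 that became -1.01 by the median of ratios and was not called after rescaling (0.34) or in voom (0.08). JMJD5 (JMJ30) fell by 1.04.

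Markers of other tissues were checked. For endosperm, 1 of 4 markers passed the filter: EPR1 (AT2G27380) stood at 3819, 2210 and 1711 TPM and then at 333, 315 and 425, and RGE1, FIS2 and PHE1 were at or near 0 in all libraries. Of 6 seed coat markers only MUM4 passed, and summed seed coat levels ran from 1.34 to 1.85 TPM in dry seed and from 25.5 to 32.0 at 48 h, with TT10, BAN, TT12 and TT8 at or near 0. All 4 pollen markers fell, and their sum ran from 19.6 to 23.5 TPM in dry seed and from 0.0736 to 0.328 at 48 h. Each of the 4 lay under 1 TPM in every 48 h library and so had to end lower. Shoot meristem and leaf markers passed in 4 of 6 cases and rose, from sums of 2.74 to 3.05 TPM to sums of 64.5 to 75.3. Of the 4 that passed, 2 lay under 1 TPM in every dry seed library and so had to end higher. The part of these tissues in the changes above was not tested.

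The same change was set against that of ref6c to show where Col differed. In ref6c, REF6 itself averaged 0.350 ± 0.185 TPM at 0 h and 8.35 ± 0.701 at 48 h, below Col at both times, and its change did not pass the test of a difference from that in Col (-0.08 ± 0.17, adjusted p = 0.74). The change from 0 to 48 h differed between the genotypes in 9149 genes (51.5%), with ref6c minus Col positive in 4460 and negative in 4689. At 2-fold or more the counts were 583 and 2088. Genes were taken by their Col levels alone, 4871 of them through Col 48 h alone and 286 through Col 0 h alone. A gene taken for its Col 48 h level leans to a negative difference, so the split is given as a description. The split depends on the scale: by the median of ratios, at any size, 2911 differences were positive and 5731 negative. In the TPM test, 4425 of the genes called higher in Col had a negative difference, and 1133 of those called lower had a positive one. CAB1 rose in ref6c from 0.996 to 48.6 TPM, a log2 change of 4.58 against 9.95 in Col (difference -5.37 ± 0.31). TIP2 rose to 13.5 TPM in ref6c against 691 in Col (-5.83 ± 0.36), and RHS19 to 0.965 against 71.3 (-5.32 ± 0.34). GA3OX1 ended at 0.736 TPM in ref6c and 20.7 in Col (-3.66 ± 0.22).

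The lists differed in direction. In all 29 light harvesting genes the difference was negative (median -3.24), and the same held for 11 of 12 root hair genes (-3.23) and 12 of 14 aquaporins (-2.04), against 26.4% of all genes and an all-gene median of 0.05. These 3 counts were 29, 11 and 13 by the median of ratios, against 5731 of all 17750 genes. All 12 root hair genes, 12 of the 29 light harvesting genes and 5 of the 14 aquaporins passed the filter through Col 48 h alone. They were taken for their level in the group that is subtracted, so these counts are given as a description. Ribosomal and nucleolar genes did not follow, with a positive difference in 14 of 20 and a negative one in 0, or 6 and 0 by the median of ratios. In reserve oil mobilisation 4 of 18 genes had a negative difference, or 10 by the median of ratios.

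All 10 storage protein genes and 7 of 8 oil body genes had a positive difference, against 25.1% of all genes, with medians of 1.92 and 1.39. Most of them fell less in ref6c, while CRA1, CRU3 and OLEO3 had ref6c changes of 0.74, 0.08 and 0.60. By the median of ratios 8 storage and 7 oil body genes had a positive difference, against 2911 of all 17750 genes. CRA1 fell in Col, but in ref6c it averaged 7545 TPM at 0 h and 12486 at 48 h (difference 2.80 ± 0.31, adjusted p = 1.1e-07), and BETA-TIP fell to 228 TPM in ref6c against 39.8 in Col (2.64 ± 0.35). EM1, ABI5 and ABI3 had differences of 1.37 ± 0.22, 1.33 ± 0.22 and 1.38 ± 0.23 in the same direction. In 9 of 19 heat shock genes the difference was negative and in 3 positive, against 26.4% and 25.1% of all genes. HSP17.6A changed by -11.10 in ref6c and -8.87 in Col (-2.23 ± 0.30), while AT-HSFA7B had a positive difference (2.43 ± 0.22). DOG1 (-0.20 ± 0.16, adjusted p = 0.33), XTH25 (-0.08 ± 0.38) and ICL (0.15 ± 0.17) were among the genes that did not pass the test of a genotype difference.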

How the data were processed

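RNA from seeds was sequenced on a BGISEQ-500 system, per the labels' protocols. The programs fastp 0.20.1 and HISAT2 2.1.10, the TAIR10 genome and DESeq2 1.26.0 are named in the submitters' processing notes, without their roles or order. The counting program and the use of strand are not given in the sources used here. The authors deposited 1 table of TPM values for 24 libraries, and only TPM were used. TPM multiplied by the gene span in RefSeq TAIR10.1 gave whole reads within 0.001 for 99.97% of 462563 values above 0, so the TPM rest on whole gene spans. The recovered depth was 16628798 to 19263065 reads a library. With strand use unknown, overlapping and antisense genes cannot be told apart.

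Genes at 1 TPM or more in 3 of the 6 Col libraries were tested with limma 3.58.1 (R 4.3.3, trend) on log2(TPM + 1), with 8 group means over all 24 libraries and 16 residual degrees of freedom. Adjusted p-values are Benjamini-Hochberg over 17750 genes. The genotype difference is the ref6c change minus the Col change. Sums over a list were compared with an exact two-sided permutation test, which with 3 against 3 cannot go below 0.10. Tables and figures used Python 3.11.15, numpy 2.4.6, pandas 2.3.3, scipy 1.17.1 and matplotlib 3.10.9. The fit was tested on simulated data. Of the gene IDs, 23641 matched the RefSeq table and 9712 had a symbol.

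The rule for named genes took the 15 largest rises and falls among called genes with a symbol, a mean of 5 TPM or more at either time and no overlap between the groups. From each list (26 gene lists and 4 of tissue markers) it took the members of smallest adjusted p, at most 4, and at most 2 that moved against the majority. It always took REF6, ELF6, ABI3, ABI5, DOG1, GA3OX1, GA3OX2, CYP707A2, EM1, GEA6, CRA1, OLEO1 and ICL. The members and lists were chosen with earlier results of these data known. Alternatives changed the pseudocount, the filter, the scaling (median of ratios; TPM without organelle, storage and oil body genes), the libraries in the fit, the replicate block, the trend and the model (voom on recovered reads), and left out each replicate in turn.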

Additional observations from a re-analysis of the deposited data

Results flagged for a closer look

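The change from 0 to 48 h differed between Col and ref6c in 9149 of 17750 genes by the limma interaction contrast. The 3 most negative and the 3 most positive differences (ref6c minus Col, log2 ± SE) among the genes that the naming rule gave for Col follow as values. TIP2, a tonoplast aquaporin, differed by -5.83 ± 0.36, with means at 48 h of 691 TPM in Col and 13.5 in ref6c. CAB1 differed by -5.37 ± 0.31, with 2080 and 48.6 TPM. The root hair peroxidase RHS19 differed by -5.32 ± 0.34, with 71.3 and 0.965 TPM. HSP21, a plastid small heat shock protein, differed by 3.13 ± 0.27. Its mean fell from 39.9 to 0.504 TPM in Col and from 2.22 TPM to a listed 0 in ref6c, so the genotypes were already apart at 0 h, and in voom on recovered reads the difference was 1.47 and not called (adjusted p = 0.21). The storage globulin CRA1 differed by 2.80 ± 0.31, with 2215 TPM at 48 h in Col and 12486 in ref6c. BETA-TIP, a seed tonoplast protein, differed by 2.64 ± 0.35, with 39.8 and 228 TPM.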

How the results depend on the processing

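By the median of ratios 9320 genes were higher and 6716 lower, and 6611 and 4233 at 2-fold or more; voom on recovered reads gave 2128 lower at 2-fold. Leaving out genes under 1 TPM in every library of either time gave 9580 higher. The median of ratios reversed ELF6 (-1.01), ABI3 (-0.74) and the list medians of ABA signalling (-1.04) and gibberellin synthesis (-0.40). The median of maturation regulators was 0.22 with a filter at 5 TPM. That of ABA synthesis, near 0, was -1.39 by the median of ratios, 0.01 with a pseudocount of 0.1, 2.47 with the 5 TPM filter, and -0.11 to 0.06 without 1 replicate. Leaving out each replicate gave 14348 to 14438 genes higher, 2217 to 2318 lower, 11999 to 12175 and 1351 to 1393 at 2-fold, and 8287 to 10599 genotype differences, which numbered 7117 with the 5 TPM filter and 7398 in voom. Of the other values for named genes, 2671 kept direction and call, 5 gained the call and 4 lost it; AT-HSFA7B (0.24) and ABA2 (0.34) lost it by the median of ratios. The cause was not tested.

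Replicate numbers did not pair the samples: deviations of same-numbered libraries correlated at 0.06, -0.01 and -0.08. A fit with the replicate block called 14456 genes higher, 2314 lower and 9206 genotype differences. Depth limits genes near 0 TPM, where 1 read is a large step.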
